A study of Mus musculus with 6 samples.

Results

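The cytosolic ribosome is built from a large (60S) and a small (40S) subunit, and the genes of its proteins were followed in bone after growth hormone (GH). Members were the rows of the value table with a single gene symbol that starts with Rpl or Rps followed by a digit, or that is Rplp0, Rplp1, Rplp2 or Rpsa. Symbols of S6 kinases (Rps6k) and of pseudogenes were left out. This gave 58 rows of 52 genes, 34 with an Rpl or Rplp symbol (large subunit) and 18 with an Rps symbol (small subunit), out of 16678 features tested. All 52 genes had values on at least 2 arrays of each time, rows of 1 gene were averaged, and 6 genes had 2 rows. Of the 4 genes named in full in the rule, Rplp1 and Rplp2 were measured.

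The animals were C57BL/6J-Ghrhr<lit> (lit/lit) mice, 4 weeks old, in which disruption of the receptor for growth hormone-releasing hormone leaves the pituitary short of GH; controls carried the same allele. A single subcutaneous dose of GH (4 mg per kg) was compared with phosphate-buffered saline (PBS) after 6 or 24 hours. Each sample was a pool of bone RNA from 2 animals, and each of 6 two-colour arrays set a GH pool (Cy5) against a PBS pool (Cy3), with replicates 1 to 3 at 6 hours and replicates 4 to 6 at 24 hours. Values are log2 ratios of GH over PBS, a direction that is likely from the dyes in the labels but is not stated by the value table. No dyes were swapped, so a row's dye bias that recurs on every array cannot be told apart from an effect of GH. Such a bias cancels only in the difference between the times. Rises and falls named below are those of the ratio. Ratios hold no expression level, so neither the abundance of a transcript nor the labelled tissue could be checked against its markers, and the labels name no particular bone. Fewer cells of a type and less RNA per cell cannot be told apart in RNA of whole bone.

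Ribosomal proteins bind ribosomal RNA in the nucleolus and leave the nucleus as parts of the assembled subunits, and their transcripts are among the most abundant of a growing cell. Most of these transcripts begin with a C and a stretch of pyrimidines, the 5′ terminal oligopyrimidine tract, through which mTOR signalling regulates their translation. GH raises protein synthesis in its target tissues, in part through IGF-1 and the mTOR and S6 kinase pathway. Ribosomal protein genes also have many near-identical processed copies in the genome. The sources used here do not say whether a row distinguishes a gene from its copies, so each value is that of the rows annotated with the gene's name.

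The tract is shown first because it is a feature that most members are known to share and that the choice of members did not use. RefSeq start sites of build GRCm38.p6 were found for 41 of the 52 genes. A run of at least 8 bases that are each C or T, on the transcribed strand, lay in the 50 bases from 35 before to 15 after a start of 23 of the 41 genes (56.1%), against 23.6% of 27025 genes with a promoter entry. The exact form, a C at the annotated start followed by 4 bases that are each C or T, was found in 8 of the 41 (19.5%) and in 3.01% of all genes. The first 3 windows below have it (Rps6, Rpl15, Rplp2), and the other 5 belong to genes described below. Capitals mark runs of at least 6 pyrimidines.
Rps6, chr4:86857353-86857402, minus strand: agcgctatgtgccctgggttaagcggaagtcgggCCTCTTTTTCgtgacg
Rpl15, chr14:18270972-18271021, minus strand: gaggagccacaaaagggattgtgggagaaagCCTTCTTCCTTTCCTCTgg
Rplp2, chr7:141447616-141447665, plus strand: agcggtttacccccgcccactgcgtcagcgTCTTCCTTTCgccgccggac
Rpl4, chr9:64173352-64173401, plus strand: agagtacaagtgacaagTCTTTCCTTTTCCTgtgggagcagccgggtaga
Rpl5, chr5:107900493-107900542, plus strand: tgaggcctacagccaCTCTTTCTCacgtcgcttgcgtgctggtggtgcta
Rpl24, chr16:55966240-55966289, plus strand: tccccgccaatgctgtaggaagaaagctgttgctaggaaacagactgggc
Rpl27, chr11:101442210-101442259, plus strand: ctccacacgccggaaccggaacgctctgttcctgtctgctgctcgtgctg
Rpl37a, chr1:72711225-72711274, plus strand: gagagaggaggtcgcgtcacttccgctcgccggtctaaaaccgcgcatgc
In Rpl4 and Rpl5 the run lay upstream of the annotated start, and Rpl24, Rpl27 and Rpl37a held no run of 6 in this window. A match describes the letters around an annotated start and was not tested against the ratios.

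Most ribosomal protein genes shifted together from array to array. The median of the members was 0.20 on replicate 1, -0.12 on replicate 2 and -0.29 on replicate 3 at 6 hours, and -0.24, -0.01 and -0.08 on replicates 4, 5 and 6 at 24 hours. The median over all features lay between -0.01 and 0.04 on the same arrays. On replicate 1, 43 of 51 members with a value were above 0, while on replicates 3 and 4 only 12 and 10 of 52 were. The mean of the array medians was -0.07 ± 0.25 (SD, n = 3 arrays) at 6 hours and -0.11 ± 0.12 (n = 3) at 24 hours, so the times differed by less than the spread between arrays of one time. The Rpl and Rps genes followed each other, with medians of 0.19 and 0.23 on replicate 1, -0.30 and -0.21 on replicate 3 and -0.26 and -0.18 on replicate 4. Some lists described below also had a median above 0 on replicate 1 and below 0 on replicates 2 to 6. For translation initiation factors it was 0.11 and then -0.45 to -0.18. For ribosome biogenesis factors it was 0.08 and -0.29 to -0.14, and for mitochondrial ribosomal proteins 0.10 and -0.17 to -0.06. The elongation factor list (-0.02 on replicate 1) and the mTOR and S6 kinase list (0.16 on replicate 4) differed.

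Replicate 1 stood apart from the other arrays. Over the members it correlated with them at r = 0.10 to 0.28, against 0.59 to 0.87 for the 10 pairs without it, and over all features the same ranges were 0.23 to 0.36 and 0.56 to 0.82. These coefficients run across genes, which are not independent replicates. The SD of the members was also smallest on replicate 1 (0.19, against 0.29 to 0.61 on the others), as it was over all features (0.45, against 0.65 to 0.88).

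**Figure D1:**
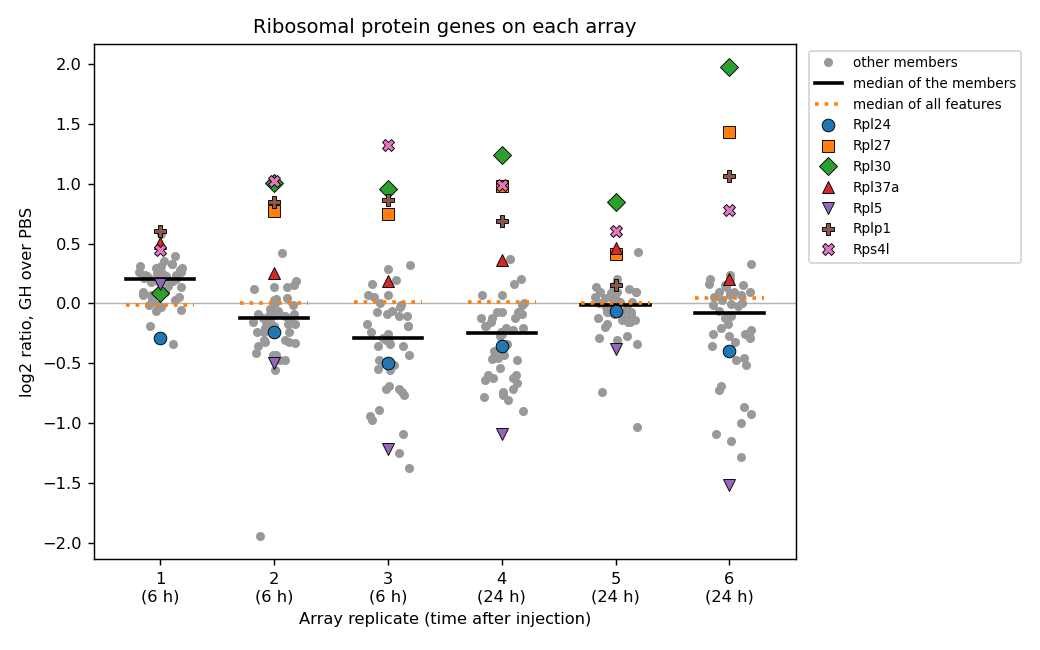
Log2 ratio of GH over PBS of the 52 ribosomal protein genes (51 on replicate 1) on each of the 6 arrays, with sideways scatter for legibility only. Black bars are the members' medians, dotted bars the medians of all features, and coloured symbols the 7 genes past the threshold over both times. The bulk of the genes lies above 0 on replicate 1 (median 0.20) and below 0 on replicates 3 and 4 (-0.29 and -0.24), while Rpl30, Rpl27, Rplp1 and Rps4l lie above 0 on each array that measured them.

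The first comparison was of GH with PBS at 6 hours. None of the 52 passed an adjusted p of 0.05 (limma, Benjamini-Hochberg over all features), where 3.62% of the 16678 features did (2.91% higher and 0.702% lower), and 8 members had an unadjusted p under 0.05 in limma against 26.6% of all features. The fitted ratio was below 0 for 37 members and above 0 for 15, with a median of -0.10, against a median of -0.02 over all features. The highest ratios were those of Rps4l (0.93 ± 0.19, SE, adjusted p = 0.0509), Rplp1 (0.77 ± 0.18, adjusted p = 0.0702) and Rpl27 (0.76 ± 0.26, adjusted p = 0.141). The lowest were those of Rpl36a (-0.55 ± 0.41, adjusted p = 0.417), Rpl5 (-0.52 ± 0.30, adjusted p = 0.321) and Rpl4 (-0.47 ± 0.29, adjusted p = 0.346). Without replicate 1 the members' median at 6 hours was -0.22 and Rps4l passed (1.18, adjusted p = 0.0287), without replicate 3 the median was 0.00 (0.0042), and without replicate 5 Rplp1 passed (0.77, adjusted p = 0.0485). After quantile normalization Rps4l (1.01, adjusted p = 0.0144) and Rplp1 (0.88, adjusted p = 0.0177) passed. Of all features, 9.09% passed without replicate 1, 3.88% without replicate 5 and 11.8% after quantile normalization.

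At 24 hours 3 of 52 members rose (5.77%) and 0 fell, against 20.6% of all features, of which 12.0% were higher and 8.62% lower. The members' share was thus below the background. Those that rose were Rpl30 (1.35 ± 0.27, 2.56-fold, adjusted p = 0.0223), Rpl27 (0.95 ± 0.21, 1.93-fold, adjusted p = 0.0352) and Rps4l (0.79 ± 0.19, 1.73-fold, adjusted p = 0.0327). The median of the members was -0.09, again with 37 below 0, and it was 0.00 (0.0033) over all features. The lowest ratios were those of Rpl5 (-0.99 ± 0.30, adjusted p = 0.0613), Rpl36a (-0.81 ± 0.41, adjusted p = 0.183) and Rps19bp1 (-0.74 ± 0.24, adjusted p = 0.0714). Without replicate 1 there were 6 calls, the same 3 rises and falls of Rpl5 (adjusted p = 0.0434), Rpl27a and Rps19bp1 (adjusted p = 0.0374), against 25.4% of all features. Without replicate 4 or replicate 6 there were 0 (5 members at an unadjusted p under 0.05 in limma each time), against 5.21% and 0.00% of all features, with Rpl30 at 1.41 (adjusted p = 0.0789) and 1.04 (adjusted p = 0.102), Rpl27 at 0.92 (0.123) and 0.70 (0.132), and Rps4l at 0.69 (0.128) and 0.80 (0.132). Rps4l also missed the threshold without replicate 2 (0.79, adjusted p = 0.0577) or 5 (0.89, adjusted p = 0.0554). Rplp1 passed without replicate 5 (0.88, adjusted p = 0.0318), when 15.2% of all features did. With each time fitted alone, Rpl27 missed the threshold at the same ratio (adjusted p = 0.0659). Rpl30 and Rps4l then rose and Rpl36a fell (-0.81, adjusted p = 0.0441), 3 of 52 members against 13.7% of all features.

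Over the 6 arrays of both times, 5 members rose and 2 fell, 13.5% of the 52 against 35.5% of all features (19.3% higher, 16.2% lower), and 17 members had an unadjusted p under 0.05 in limma, against 48.5%. Rpl30 (1.02 ± 0.19, 2.03-fold), Rps4l (0.86 ± 0.13, 1.82-fold), Rpl27 (0.85 ± 0.17, 1.81-fold), Rplp1 (0.70 ± 0.13, 1.63-fold) and Rpl37a (0.33 ± 0.09, 1.26-fold) rose, with adjusted p of 0.0112, 0.00662, 0.0160, 0.0113 and 0.0285. Rpl5 fell 1.69-fold (-0.75 ± 0.22, adjusted p = 0.0370) and Rpl24 fell 1.24-fold (-0.30 ± 0.09, adjusted p = 0.0385). Without replicate 1, 16 members passed, the same 5 rises and 11 falls, among them Rpl5, Rpl4, Rpl23, Rpl9 and Rps23, against 40.9% of all features then. Rpl24 was not among them (-0.32, adjusted p = 0.0515). Without replicate 2, 3, 4 or 6 there were 3, 3, 4 and 4 calls, all rises, while the share of all features that passed was 14.4%, 14.2%, 21.9% and 20.8%. Rpl5 (adjusted p = 0.0963 to 0.107), Rpl24 (0.0914 to 0.120) and Rpl37a (0.0511 to 0.0823) missed the threshold each time, and Rpl27 could not be tested without replicate 2 or 3. Without replicate 5, 8 members passed, 4 higher and 4 lower, against 33.0% of all features. Rpl5 and Rpl24 were still among the falls, Rpl23 and Rps19bp1 joined them, and Rpl37a missed the threshold (0.30, adjusted p = 0.0719). The names of the scanner's output files start alike on replicates 4 and 6 and differently on the other 4 arrays. With that prefix as a covariate the 24-hour ratio rests on replicate 5 alone. No member then passed at 24 hours, against 0.192% of all features, and over both times only a fall of Rpl7l1 did, against 8.35%. Rpl7l1 was measured by 2 rows that disagreed, and on replicate 5 only the lower row had a value (-1.03).

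**Figure D2:**
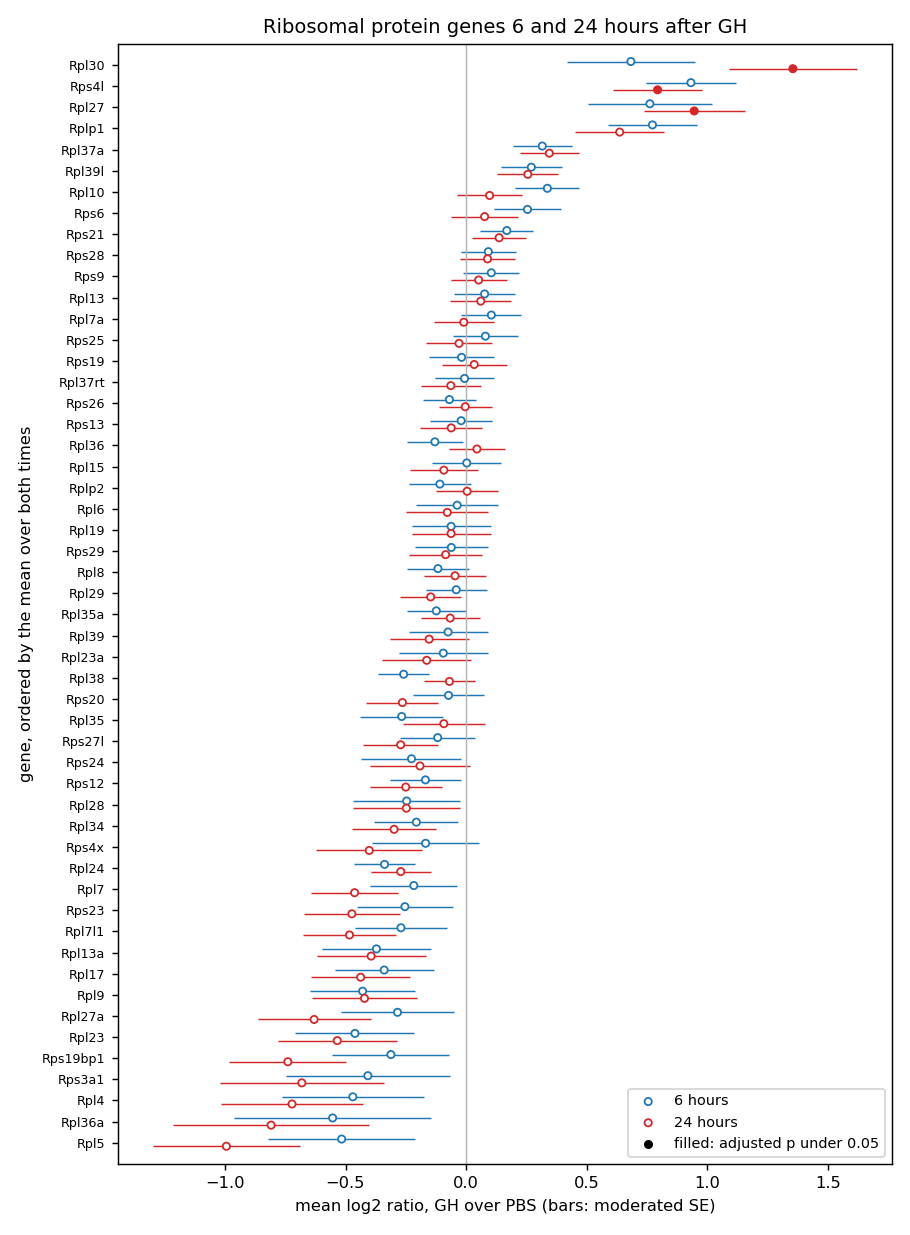
Mean log2 ratio of GH over PBS of each of the 52 genes at 6 hours (blue) and 24 hours (red), with limma's moderated standard error as bars, ordered by the mean over both times. Filled symbols, of which there are 3 (Rpl30, Rps4l and Rpl27 at 24 hours), passed an adjusted p of 0.05. At each time 37 of the 52 means lie below 0.

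The difference between the times, 24 minus 6 hours, passed for 0 of 52 members and for 0.00% of all features (limma, adjusted p), and 0 members and 506 features (3.03%) had an unadjusted p under 0.05. Rpl30 had the highest difference (0.67) and Rpl5 the lowest (-0.48), both with an adjusted p of 0.982. The median difference was -0.06, and it was 0.06 without replicate 1.

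Among the large-subunit genes, Rpl30 had the highest ratio at 24 hours and over both times, and Rplp1 and Rpl27 lay above it at 6 hours. The protein it encodes sits at the subunit interface. Rpl30 had log2 ratios of 0.08, 1.01 and 0.96 at 6 hours and of 1.24, 0.85 and 1.97 at 24 hours. It was above 0 on all 6 arrays, lowest on replicate 1 and highest on replicate 6. Rpl27, which encodes another 60S protein, had no value on replicate 1 and 0.77 and 0.75 on replicates 2 and 3. At 24 hours it had 0.99, 0.41 and 1.44, so that its times overlapped. Rpl37a, a zinc-binding 60S protein, had 0.51, 0.25 and 0.19 at 6 hours and 0.37, 0.46 and 0.20 at 24 hours, with the smallest spread of the genes that rose (range over the arrays 0.32).

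Rpl5, which with Rpl11 carries 5S ribosomal RNA into the large subunit and can bind Mdm2, had the largest fall. Its log2 ratios were 0.16, -0.49 and -1.22 at 6 hours and -1.09, -0.38 and -1.51 at 24 hours. It was above 0 on replicate 1 and below 0 on the other 5 arrays. Rows shared by Rpl5 and Dipk1a, left out of the members, disagreed, with means of -0.64, 0.52, -0.41 and 1.15 at 24 hours. Rpl24, a 60S protein that bridges to the small subunit, had -0.29, -0.23 and -0.49 at 6 hours and -0.36, -0.06 and -0.40 at 24 hours. It was below 0 on all 6 arrays, replicate 1 included. Rpl4, a protein that lines the peptide exit tunnel, had 0.14, -0.17 and -1.38 at 6 hours and -0.90, -0.34 and -0.92 at 24 hours, and did not pass (-0.60 ± 0.21 over both times, adjusted p = 0.0652). Rpl36a had the widest range of all members (2.17), with 0.23, -1.94 and 0.06 at 6 hours and -0.60, -0.74 and -1.09 at 24 hours. Its value on replicate 2 was the lowest of any member on any array. Without that 6-hour array its ratio at 24 hours stayed at -0.81, but the estimate of the spread, shared by both times, changed. The ratio then passed (adjusted p = 0.0298), when 12.7% of all features did.

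The acidic stalk proteins P1 and P2 bind as dimers and recruit elongation factors to the ribosome. Their rows did not move alike. Rplp1 had 0.60, 0.85 and 0.86 at 6 hours and 0.69, 0.15 and 1.07 at 24 hours, above 0 on all arrays. Rplp2 had -0.34, 0.04 and -0.03 at 6 hours and 0.16, -0.15 and 0.00 at 24 hours, on both sides of 0 (-0.05 ± 0.09 over both times, adjusted p = 0.675).

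Of the 18 Rps symbols 1, Rps4l, passed at 24 hours and over both times (5.56%, against 20.6% and 35.5% of all features). At 6 hours 1 had an unadjusted p under 0.05 in limma (5.56%, against 26.6%). Rps4l, a copy of the gene of the 40S protein S4, had 0.44, 1.03 and 1.32 at 6 hours and 0.99, 0.60 and 0.78 at 24 hours, above 0 on every array. Its relative Rps4x, the X-linked gene of S4, had 0.40, -0.17 and -0.74 at 6 hours and -0.60, -0.15 and -0.45 at 24 hours and did not pass (-0.29 ± 0.16 over both times, adjusted p = 0.189). On replicates 2 to 6 the rows of these genes lay on opposite sides of 0. Rps6, the 40S protein that S6 kinases phosphorylate, had 0.14, 0.43 and 0.19 at 6 hours and 0.37, -0.12 and -0.02 at 24 hours (0.17 ± 0.10 over both times, adjusted p = 0.222). Rps21 was above 0 on all 6 arrays (0.07 to 0.31) but did not pass (0.15 ± 0.08, adjusted p = 0.166). Rps3a1 had the widest range of the Rps genes, from 0.33 on replicate 1 to -1.25 on replicate 3 and -1.29 on replicate 6.

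The symbol rule also takes in 6 genes that are paralogues of ribosomal proteins or none: Rps4l, Rpl37rt, Rpl39l, Rpl7l1, Rps27l, a p53 target, and Rps19bp1, which encodes a regulator of Sirt1. Rpl39l was above 0 on 5 arrays and at 0 on replicate 4 (0.26 ± 0.09 over both times, adjusted p = 0.0601), and Rps27l averaged -0.19 ± 0.11 (adjusted p = 0.201). Rps19bp1 had 0.31, -0.56 and -0.69 at 6 hours and -0.76, -0.30 and -1.15 at 24 hours (-0.53 ± 0.17, adjusted p = 0.0536). Rpl37rt stayed within 0.22 of 0, from -0.22 to 0.19. Rpl7l1 averaged -0.38 ± 0.14 (adjusted p = 0.0705) over rows that disagreed. Without these 6, 2 of 46 members passed at 24 hours (4.35%, against 20.6% of all features). Over both times 6 of 46 did (13%, against 35.5%).

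Across the 51 members with 6 values, 5 were above 0 on all 6 arrays (9.80%: Rpl30, Rpl37a, Rplp1, Rps21 and Rps4l), against 17.7% of all 15131 features with 6 values. Only Rpl24, Rpl38 and Rpl7l1 were below 0 on all 6 (5.88%, against 15.8%). For Rpl7l1 this held only for the average of its rows. The lower row was at 0.34 on replicate 1 and the other at 0.34, 0.45 and 0.54 on replicates 2, 4 and 6. On replicates 2 to 6 alone, 19 of the 51 were below 0 on all 5 arrays (37.3%, against 26.4%), and the same 5 were above 0 (9.80%, against 26.8%). The 19 included Rpl5, Rpl4, Rpl23, Rpl9, Rpl17, Rpl13a, Rps3a1, Rps23 and Rps4x. All of the 19 but Rpl24, Rpl38 and Rpl7l1 were above 0 on replicate 1.

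As a description, the patterns of the members over the 6 arrays were compared by correlation. Each gene was correlated with the median of the other members, Rpl27 only over the 5 arrays that measured it. Most like that median were Rpl9, Rpl13a and Rpl23a (r = 0.97, 0.97 and 0.96). Rpl9 had 0.07, -0.42 and -0.94 at 6 hours and -0.79, -0.12 and -0.36 at 24 hours. For 21 of the 52 genes r was above 0.8. It was below 0 for 7 genes, Rpl27, Rpl30, Rplp1, Rplp2, Rps13, Rps4l and Rps6, among them 4 of the 5 that rose over both times. These points share 1 array set, so a shift of a whole array enters every coefficient.

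Both rows of Rpl4 gave nearly the same ratios on every array, with gaps of 0.03 to 0.27 and means over the arrays of -0.55 and -0.64. The rows of Rpl7 averaged -0.46 and -0.22 and those of Rpl15 -0.14 and 0.05. Rpl6 had 1 row at 0.26 and the other at -0.38, with the first higher on every array by 0.33 to 0.94. For Rpl7l1, a paralogue of Rpl7, the rows averaged 0.15 and -0.71 and differed by up to 1.51. The rows of Rps6 averaged 0.27 and 0.06 and differed by up to 0.79. No pair of row means was over 1 apart. Tested row by row, a row of Rpl7l1 fell at 24 hours, beside the genes named above. Over both times a row each of Rpl6 and Rpl7l1 fell and 1 of Rps6 rose, again beside those genes. This made 4 and 10 of 52 members, against 21.3% and 35.5% of all rows tested.

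**Figure D3:**
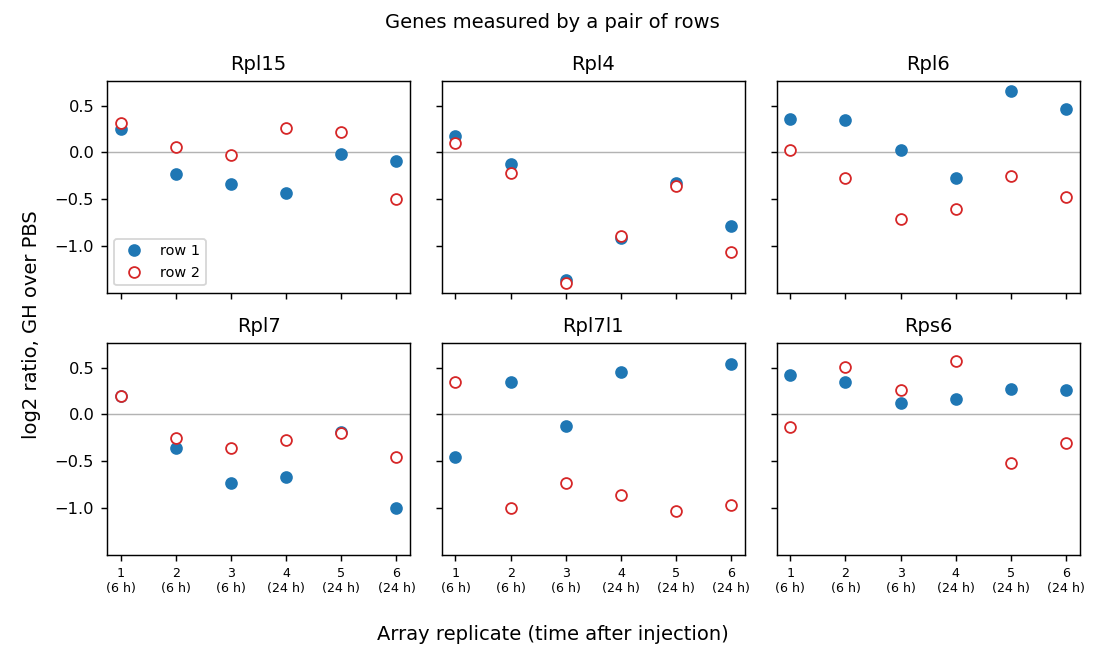
Log2 ratio of GH over PBS on each of the 6 arrays for the 6 genes that were measured by 2 rows, with filled symbols for row 1 and open symbols for row 2. The rows of Rpl4 lie within 0.27 of each other, while those of Rpl6 and Rpl7l1 lie up to 0.94 and 1.51 apart.

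Other genes of ribosome assembly and translation were described beside the members, with 3.62%, 20.6% and 35.5% of all features past the threshold at 6 hours, 24 hours and over both times. Of 55 mitochondrial ribosomal proteins, which build the separate ribosome of mitochondria, 5 fell and 0 rose at 24 hours, and 9 fell and 4 rose over both times. Mrps31 had -1.59 ± 0.32 (adjusted p = 0.0229) and Mrpl27 -0.96 ± 0.17 (adjusted p = 0.0189) at 24 hours, beside -0.99 for Rpl5, the lowest cytosolic member then. Of 72 measured ribosome biogenesis factors 2 fell at 6 hours, Noc3l (-1.14) and Exosc10 (-0.72), a subunit of the RNA exosome. At 24 hours 12 of the 72 fell and 1 rose, among them Surf6 (-1.45) and Wdr36 (-1.48), and over both times 19 fell and 0 rose. Of 26 initiation factors 2 fell at 24 hours, the cap-binding protein gene Eif4e (-0.99) and Eif3m (-1.45), and 5 fell and 0 rose over both times. The elongation factor list was one of Eef symbols, not all of them of elongation factors proper. Of its 7 measured genes Eef1e1 (1.40) and Eef1g (0.62) rose at 24 hours, and Eef1b2 fell over both times (-0.29). Of 8 RNA polymerase I genes Polr1b alone rose at 24 hours (0.64).

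The mTOR and S6 kinase list held 15 measured genes. The shares of all features past the threshold were those given above, 3.62%, 20.6% and 35.5%. Rptor, the scaffold of mTOR complex 1, rose at 6 hours (0.55, adjusted p = 0.0498). At 24 hours 2 rose, among them the S6 kinase family gene Rps6ka6 (1.38), and 3 fell, among them Mtor (-1.40) and Larp4 (-1.06), an RNA-binding protein gene. Over both times 4 rose and 3 fell.

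Markers of other cell types in bone and marrow moved on the same arrays. Their counts stand beside 20.6% of all features past the threshold at 24 hours (12.0% higher, 8.62% lower). Over both times that share was 35.5% (19.3% higher, 16.2% lower). The median of 8 measured neutrophil markers (of 20 listed) was 0.05 on replicate 1 and -0.53, -1.29, -1.64, -0.64 and -0.77 on replicates 2 to 6, and 4 of the 8 fell at 24 hours and over both times. The median of 14 skeletal muscle markers (of 24) was 0.09 on replicate 1, 0.63, 1.04 and 0.90 on replicates 2, 3 and 4 and 0.10 and 0.26 on replicates 5 and 6, and 5 of the 14 rose over both times. The arrays with the lowest ribosomal medians, replicates 3 and 4, thus had the lowest neutrophil and the highest muscle medians. The median of 10 erythroid markers (of 24) was 0.17, -0.17, -0.34, -0.12, 0.25 and 0.10, and 2 of the 10 rose over both times. Of the remaining lists, 3 of 7 osteoblast, 1 of 6 osteoclast, 1 of 3 chondrocyte, 1 of 8 B lineage and 0 of 2 adipocyte markers rose over both times, and 2 of the 3 chondrocyte markers fell. The part of any of these cell types in the ribosomal ratios was not tested.

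**Figure D4:**
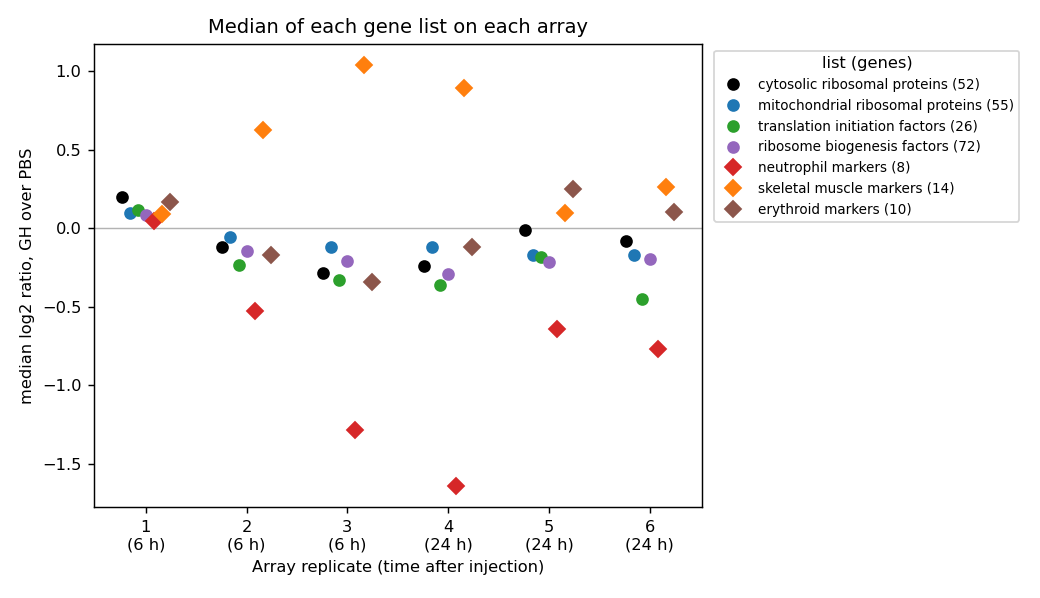
Median log2 ratio of GH over PBS of some of the gene lists on each of the 6 arrays. The largest number of genes with a value is in brackets. Circles are cytosolic and mitochondrial ribosomal proteins, translation initiation factors and ribosome biogenesis factors. Diamonds are neutrophil, skeletal muscle and erythroid markers. The other lists are not drawn, among them the elongation factor and the mTOR and S6 kinase lists, whose medians differed. The cytosolic ribosomal proteins lie at 0.20 on replicate 1 and at -0.29 and -0.24 on replicates 3 and 4, where the neutrophil markers are lowest (-1.29 and -1.64) and the muscle markers highest (1.04 and 0.90).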

How the data were processed

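The authors deposited 1 log2 ratio per row and array (21446 rows). Array medians lay between -0.01 and 0.03 and SDs between 0.47 and 0.91. The sources used here do not give the extraction software or normalization, and signal over background is unknown. A single gene symbol stood on 11813 rows of the platform annotation (559 had several, 9074 none), and 11782 of these matched the gene table of GRCm38.p6. Rows of 1 symbol were averaged, others stayed single, and features with values on at least 2 arrays of each time were kept.

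All 6 arrays entered one model in limma 3.58.1 (R 4.3.3; lmFit, eBayes) with a mean for each time and 4 residual degrees of freedom where no value was missing. Tests were two-sided against 0, with Benjamini-Hochberg adjustment over all 16678 features. The procedure was tested on simulated ratios that were independent between features. They held no shift of a whole array and no dye bias, so they do not cover these. Errors are moderated standard errors unless called SD. The number of arrays limits the precision, and the spread holds animal and technical variation together.

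Members and gene lists were chosen with earlier results of these data known. Named were members past the threshold, or the 3 highest and lowest, with Rplp1, Rplp2, Rps6, Rpl4 and the paralogues; others were named after their values were seen. Lists have counts and medians, no test. Alternatives were centring, scaling, quantile normalization, single rows, other rules for missing and zero values, robust eBayes, array weights, each time alone, the output file prefix and each replicate left out.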

Additional observations from a re-analysis of the deposited data

How the results depend on the processing

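The members' count was recomputed under each alternative. At 6 hours it was 1 instead of 0 after centring (Rps4l) or with the output file prefix as a covariate (Rplp1), 2 after scaling to 1 median absolute deviation or quantile normalization (10.7% and 11.8% of all features), and 11 (5 higher, 6 lower) with array weights, when 37.4% of all features passed. Replicate 2 had by far the highest weight (3.33, the next being 1.09) and replicate 1 the lowest (0.402). Leaving out 1 replicate gave 0 to 1 at 6 hours, 0 to 6 at 24 hours and 3 to 16 over both times, where 0.00% to 9.09%, 0.00% to 25.4% and 14.2% to 40.9% of all features passed. With the prefix as a covariate it was 0 at 24 hours (1 member had an unadjusted limma p under 0.05) and 1 over both times, a fall of Rpl7l1, and Rpl30 had 0.85 at 24 hours (adjusted p = 0.437). With array weights it was 20 over both times (6 higher, 14 lower), against 50.3% of all features. The cause of these changes was not tested. In the difference it was 0 under every alternative run (limma, 0 to 1 members with an unadjusted p under 0.05). The other counts stayed within 1.5 times, though not always with the same genes. Signs were compared for the named members only, each alternative against the reported fit. No ratio that passed in either of them had the opposite sign in the other. Alternatives could differ in sign among themselves. At 6 hours Rpl36a passed with array weights (-1.31, limma adjusted p = 0.0377) and had 0.14 without replicate 2. Leaving out the 6 paralogues, an alternative chosen after seeing the data, gave 0, 2, 6 and 0. The shares of all features stayed at 3.62%, 20.6%, 35.5% and 0.00%. No paired analysis was possible because the arrays of the 2 times carry different replicate numbers and each array already sets a GH pool against a PBS pool. Signal over background, which would limit the precision of a ratio, is unknown.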

Other observations

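A further 15 rows carried a ribosomal protein symbol together with another gene's symbol and were left out of the members. The row of Rplp0 and Id4 lay below 0 on all 6 arrays (-0.47 on replicate 1 to -1.69 on replicate 6), and that of Rpl22 and 9430083M05Rik above 0 on all 6 (0.42 to 0.77). The row of Rps3 and Snord15b had 0.31, -0.15 and -0.67 at 6 hours and -0.62, 0.18 and 0.34 at 24 hours. The row of Rps27 and Rps27rt had 0.19, -0.43 and -0.64 at 6 hours and -0.58, -0.10 and -0.30 at 24 hours, and that of Rpl26 and Gm15772 had 0.26, -0.45 and -0.60 and -0.43, -0.07 and -0.49. The 4 rows shared by Rpl5 and Dipk1a disagreed, with means of -0.21, 0.60, -0.13 and 1.77 at 6 hours and -0.64, 0.52, -0.41 and 1.15 at 24 hours, beside -0.52 and -0.99 for the row that carried Rpl5 alone.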
